A study of Mus musculus with 8 samples.

Results

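Id4, Pax7, Tspan8, Utf1, Nanos2, Glis3 and Sall1 are 7 genes known for marking or maintaining the stem cell state of mouse spermatogonia. They were chosen by name, as a list of genes with that reputation, with earlier results of these data known. All 7 were among the 5736 genes of the table. Their mRNA levels were read from bulk RNA-seq of 8 libraries of EGFP+ germ cells sorted from testes of CD1:Uchl1-eGFP mice, in which the Uchl1 promoter drives EGFP. There were 2 libraries of undifferentiated A-aligned spermatogonia (Aal), 3 of early differentiating type A1 spermatogonia and 3 of mid-differentiating type A3 spermatogonia. The labels give 1 treatment for all 3 groups. Pups were dosed orally with the retinoic acid (RA) synthesis inhibitor bis-(dichloroacetyl)-diamine at 100 µg/g of body weight, daily from postnatal day (P) 1 through P10, and then were given RA under the skin once on P11, as 10 µl of a 10 µg/µl solution. By the design text the Aal state is the one found before that injection, A1 the one a day after it and A3 a later one. The sample labels do not give the age at which each library was collected. Each preparation pooled testes of at least 5 pups of a litter, so no library stands for a single animal, and EGFP marks cells by Uchl1 promoter activity rather than by a stage.

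Spermatogonial stem cells lie on the basement membrane of the seminiferous tubule and either renew themselves or give rise to progenitors, which divide into chains joined by cytoplasmic bridges. GDNF from Sertoli cells acts through the receptor RET on the cells at the top of this hierarchy, and RA drives the passage from Aal to A1 spermatogonia, after which cells are committed to differentiate. The 7 genes act at different places. ID4 is a helix-loop-helix protein without a DNA-binding region that holds back E proteins, and NANOS2 is an RNA-binding protein that represses mRNAs of differentiation. PAX7, GLIS3 and SALL1 are DNA-binding transcription factors, UTF1 is a chromatin-associated factor also known from pluripotent cells, and TSPAN8 is a tetraspanin of the cell surface used to sort stem cell-rich fractions.

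The 7 genes lie on 6 mouse chromosomes (build mm9, GENCODE M1, whole gene spans with exons and introns). Id4 is at chr13:48356796-48359405 on the plus strand, Pax7 at chr4:139292977-139389445 on the minus strand and Tspan8 at chr10:115254340-115286949 on the plus strand. Utf1 at chr7:147129688-147131011 and Nanos2 at chr7:19572873-19574311 are both on the plus strand of chromosome 7. Glis3 at chr19:28333341-28754567 and Sall1 at chr8:91551147-91568061 are on the minus strand. The Id4 span overlaps a long noncoding RNA, A330033J07Rik, on the other strand. The Glis3 span holds a second annotated Glis3 entry and 4933413C19Rik on its own strand and D930032P07Rik on the other, so the Glis3 value may include reads of a neighbour. These neighbours were not analysed here.

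All 7 genes matched the RefSeq promoter set (build GRCm38.p6), which covers 250 bases before to 50 bases after each annotated start, and Sall1 matched 3 starts. The promoters of Tspan8, Nanos2, Id4 and Utf1 are printed because the first 3 belong to genes whose mRNA fell at the first step and Utf1 was not called there, and because they span the range from poor to rich in CpG. Capitals mark the matches, on either strand, to ATGCAAAT (the octamer bound by POU factors), AGGTCA (a half-site of nuclear receptors, RA receptors included), CANNTG (the E box), TATAAA (the TATA box), GGGCGG (the GC box) and CCAAT.
Tspan8, chr10:115817034-115817333, plus strand: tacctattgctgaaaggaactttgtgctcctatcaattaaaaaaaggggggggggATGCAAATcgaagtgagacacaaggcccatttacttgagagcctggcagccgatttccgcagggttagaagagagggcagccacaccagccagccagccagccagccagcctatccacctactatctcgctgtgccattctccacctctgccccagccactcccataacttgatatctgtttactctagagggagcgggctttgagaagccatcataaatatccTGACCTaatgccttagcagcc
Nanos2, chr7:18987274-18987573, plus strand: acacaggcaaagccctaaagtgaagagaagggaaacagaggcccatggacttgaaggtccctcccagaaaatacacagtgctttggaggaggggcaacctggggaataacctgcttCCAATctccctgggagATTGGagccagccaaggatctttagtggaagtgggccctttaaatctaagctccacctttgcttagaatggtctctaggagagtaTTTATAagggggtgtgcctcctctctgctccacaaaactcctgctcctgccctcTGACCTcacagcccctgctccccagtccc
Id4, chr13:48260866-48261165, plus strand: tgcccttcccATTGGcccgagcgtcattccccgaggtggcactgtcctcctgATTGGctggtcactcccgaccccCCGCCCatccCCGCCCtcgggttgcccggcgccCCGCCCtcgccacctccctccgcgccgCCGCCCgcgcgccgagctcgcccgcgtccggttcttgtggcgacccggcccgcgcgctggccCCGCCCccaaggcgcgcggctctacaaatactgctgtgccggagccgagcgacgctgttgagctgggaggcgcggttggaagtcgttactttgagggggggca
Utf1, chr7:139943606-139943905, plus strand: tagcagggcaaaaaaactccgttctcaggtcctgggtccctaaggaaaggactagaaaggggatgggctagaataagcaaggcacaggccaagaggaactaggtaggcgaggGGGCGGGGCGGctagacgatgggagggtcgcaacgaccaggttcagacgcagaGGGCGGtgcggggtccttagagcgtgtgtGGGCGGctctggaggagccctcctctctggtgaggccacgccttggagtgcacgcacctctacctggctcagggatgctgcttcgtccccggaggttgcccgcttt

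The Nanos2 window held no CpG at 53.0% GC, and the Tspan8 window held 5 at 51.7% GC. The median of all 32851 promoters was 52.7% GC with 7 CpG, so both lie near it in GC, while Nanos2 has fewer CpG than the lower quartile of 3. The Id4 window held 39 CpG at 73.3% GC, and the Utf1 window held 17 at 62.0% GC. GGGCGG occurred 5 times in the Id4 window and 4 times in that of Utf1, with no match in those of Tspan8 and Nanos2, and 35.7% of all promoters held it at least once. ATGCAAAT occurred once, in Tspan8 at -195 from the start, and 1.74% of all promoters held it. AGGTCA occurred, read on the opposite strand as TGACCT, after the start of Nanos2 at 22 and of Tspan8 at 30, and 16.3% of all promoters held it. TATAAA, read on the opposite strand, began at -33 in Nanos2 and was in 13.6% of all promoters. CCAAT lay at 2 positions in each of the Nanos2 and Id4 windows and was in 37.4% of all promoters. CANNTG was in 72.3% of all promoters but in only 1 of the 9 windows of the 7 genes, that of Glis3 at -173. These are letter matches and not measured binding sites.

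The libraries held 18276164 to 27316451 reads as recovered from the steps of the FPKM values, and the genes of the table took 34.0 to 34.4% of them. FPKM is the number of reads per kilobase of gene, scaled to library size, so levels can be compared between genes. Uchl1, whose promoter drives the sorted EGFP, was not called in any comparison, with log2 changes of 0.13 (A1 against Aal) and 0.07 (A3 against A1). Sertoli cells are the somatic nurse cells of the tubule, and the summed FPKM of the 11 Sertoli cell markers in the table (of 22 listed) set 4 libraries apart. It was 52.3 and 40.6 in Aal, 62.5, 60.7 and 416 in A1 and 409, 298 and 218 in A3, so A1 replicate 3 and every A3 library were high. None of the 11 markers was at 0, and nor was any other gene of the table in any library. Trf, the transferrin gene, went the other way from the sum, with group means of 12.2 FPKM (Aal), 1.98 (A1) and 3.28 (A3), and was called lower in A1 and in A3 than in Aal (log2 changes -2.17 and -1.62). A1 replicate 3 also had the highest sums of the Leydig cell list (10.3 against 1.05 to 3.67 elsewhere) and the macrophage list (10.5 against 0.459 to 1.63 elsewhere). The same held for the peritubular myoid cell list (6.53 against 1.56 to 3.36 elsewhere). The endothelial cell list went the other way, at 7.90 and 9.07 in Aal, 5.2 to 6.6 in A1 and 3.1 to 3.5 in A3. By the Sertoli marker sum A1 replicates 1 and 2 lay near but above the Aal libraries, and fits with the mean of the Sertoli markers as a covariate are given beside each comparison.

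In Aal spermatogonia the summed level of the 7 genes was 179.5 and 184.9 FPKM. It was 58.4, 45.2 and 41.1 in A1 and 47.2, 47.0 and 51.7 in A3, and the Aal range did not overlap either. Glis3 and Sall1 together made up most of the Aal sum, at 34.1 and 33.3% of it. In Aal, Glis3 had a mean of 62.0 FPKM ± 4.50 (SD, n = 2) and Sall1 of 60.7 ± 5.02, and their ranges overlapped. Both stood above 93% of the genes of the table. Id4 followed at 28.5 ± 5.28 and did not overlap either neighbour in the order. Utf1 (11.6 ± 4.13), Tspan8 (8.84 ± 1.27) and Nanos2 (8.27 ± 1.73) overlapped each with the next, and Pax7 was lowest at 2.23 ± 0.765.

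**Figure D1:**
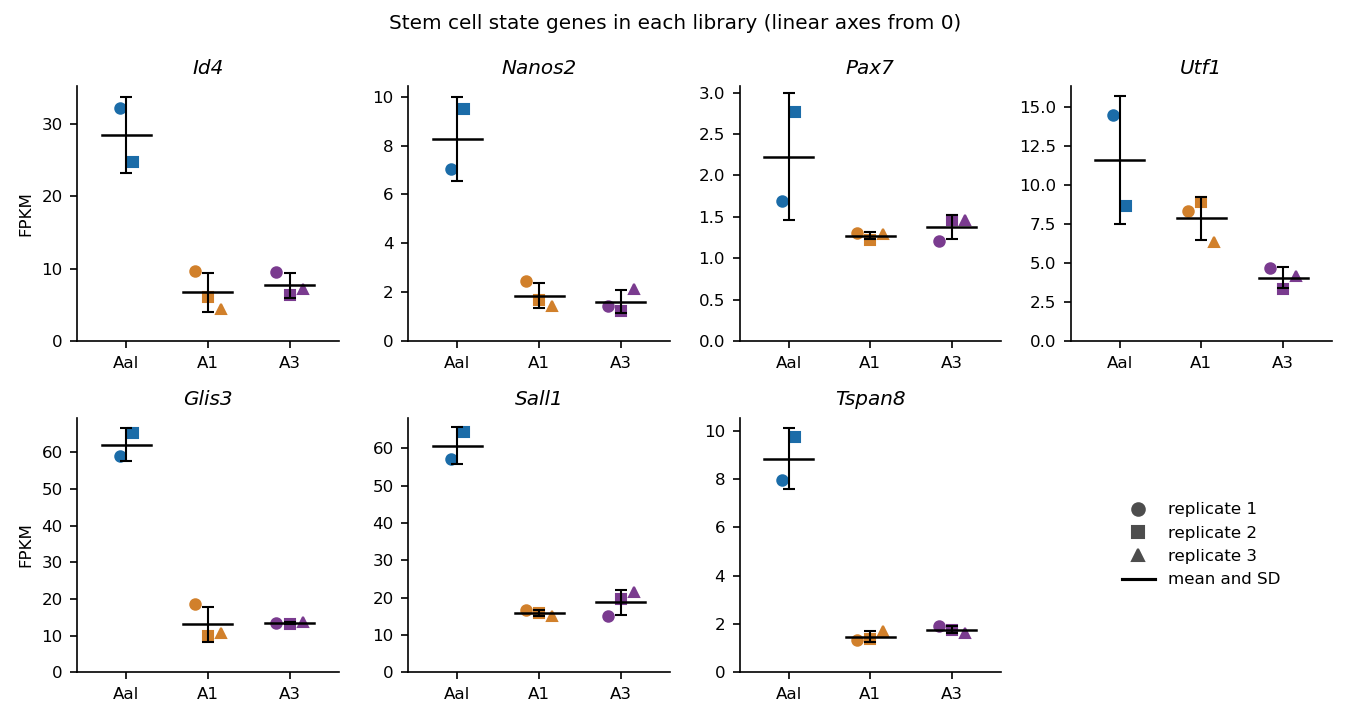
FPKM of each of the 7 genes in each library on linear axes from 0, with group means (lines), SD (bars) and a symbol for each replicate number. The Aal libraries lie above all others for 6 genes, and for Utf1 the A3 libraries lie below all others.

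The A1 libraries were compared with Aal to ask how these mRNAs differ at the onset of differentiation. Id4, Nanos2, Tspan8, Glis3 and Sall1 fell in A1 to between 16.8 and 26.2% of their Aal means. A gene was called where limma's Benjamini-Hochberg adjusted p was at most 0.01 and the absolute log2 change of FPKM + 1 was above 1. By that rule 5 of 7 fell and none rose. Of all 4632 genes tested, 4.97% were called lower and 4.19% higher. The median log2 change of the 7 was -1.87, against 0.03 over all genes tested. In sorted bulk samples, fewer cells of a type and less RNA per cell cannot be told apart. By the design text Aal is the state before the RA injection and A1 the one a day after it. Stage and exposure to RA therefore cannot be told apart either.

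Id4 was at 32.2 and 24.7 FPKM in Aal and at 9.67, 6.11 and 4.42 in A1. All A1 libraries were below both Aal libraries, and the lowest of them, A1 replicate 3, was the one with the high Sertoli markers. The log2 change was -1.98 (SE 0.27, limma adjusted p = 0.00116), and the A1 mean was 23.6% of the Aal mean. It varied most among the 7 within A1, with a coefficient of variation of 39.9%.

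Nanos2, the RNA-level regulator of the list, was at 7.05 and 9.49 FPKM in Aal and at 2.44, 1.68 and 1.44 in A1. The groups did not overlap, and the A1 values rest on 75, 66 and 38 reads. Its log2 change was -1.70 (SE 0.19, limma adjusted p = 0.00058), which leaves 22.4% of the Aal mean.

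Glis3, whose product is a zinc finger factor related to the GLI proteins, was at 58.9 and 65.2 FPKM in Aal and at 18.5, 9.97 and 10.8 in A1. It had from 1487 to 12304 reads a library, so the spread within A1 (coefficient of variation 36.0%) is wider than counting error alone gives. It had the most negative log2 change of the 7, -2.21 (SE 0.23, limma adjusted p = 0.000433).

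Sall1, a zinc finger factor of the spalt family known from kidney development, was at 57.2 and 64.3 FPKM in Aal and at 16.8, 15.9 and 15.1 in A1. The A1 libraries lay close together, with a coefficient of variation of 5.23%. Its log2 change was -1.87 (SE 0.08, limma adjusted p = 6.03e-05).

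Tspan8, the surface protein, was at 7.94 and 9.73 FPKM in Aal and at 1.32, 1.40 and 1.73 in A1. By the ratio of means it was the deepest fall of the 7, to 16.8% of Aal, and from 13.6 to 21.7% over the pairs of single libraries. The log2 change was -1.99 (SE 0.15, limma adjusted p = 0.000198), and the added 1 understates the change of a gene at this level.

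Pax7, known in muscle satellite cells as well as in rare single spermatogonia, did not pass. It was at 1.69 and 2.77 FPKM in Aal and at 1.303, 1.22 and 1.29 in A1, or 174 and 297 reads against 119, 143 and 101. The groups did not overlap, but Aal replicate 2 was well above Aal replicate 1. The log2 change was -0.48 with a 95% interval of -0.88 to -0.09 and a limma adjusted p of 0.0547. Leaving out Aal replicate 2 gave -0.24, and leaving out Aal replicate 1 gave -0.73. The added 1 understates the change of Pax7 too. With a pseudocount of 0.1 the change was -0.72 (limma adjusted p = 0.0592) and with voom -0.77 (voom adjusted p = 0.0335), neither called.

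Utf1 did not pass either, and its groups overlapped. It was at 14.5 and 8.69 FPKM in Aal and at 8.36, 8.90 and 6.32 in A1, so that A1 replicate 2 was above Aal replicate 2. The log2 change was -0.48 with a 95% interval of -1.0 to 0.04 and a limma adjusted p of 0.121. It turned on the Aal libraries, at -0.14 without Aal replicate 1 and -0.82 without Aal replicate 2 (adjusted p = 0.041), neither past the call rule. In the A1 order of levels Utf1 and Id4 stood next to each other with overlapping ranges, although in Aal Id4 was above Utf1 without overlap.

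The groups did not overlap for 6 of the 7 genes, Utf1 being the exception, and 64.0% of all genes tested did not overlap. Without A1 replicate 3, the A1 library high in Sertoli markers, the 5 calls held, with log2 changes of -1.75 for Id4, -1.60 for Nanos2, -2.10 for Glis3, -1.83 for Sall1 and -2.06 for Tspan8. The count depended on the Aal libraries. Without Aal replicate 2 it was 2 (Tspan8 and Sall1), when 179 of 4463 genes were called over the table in place of 424 of 4632. The log2 changes of the genes lost there were -2.16 for Id4 (limma adjusted p = 0.016), -1.51 for Nanos2 (0.013) and -2.13 for Glis3 (0.0125). Without Aal replicate 1 the count was 4, Id4 being lost at -1.79 (0.0222). With the mean of the Sertoli markers as a covariate the 5 calls held, with log2 changes of -1.67 for Id4, -1.53 for Nanos2, -2.05 for Glis3, -1.81 for Sall1 and -2.07 for Tspan8. That mean, of log2(FPKM + 1), was at 1.88 and 1.56 in Aal and at 2.05, 2.04 and 4.07 in A1. The groups did not overlap on it, and its slope rests largely on A1 replicate 3. The covariate fit lies close to the one without that library and is no separate check.

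**Figure D2:**
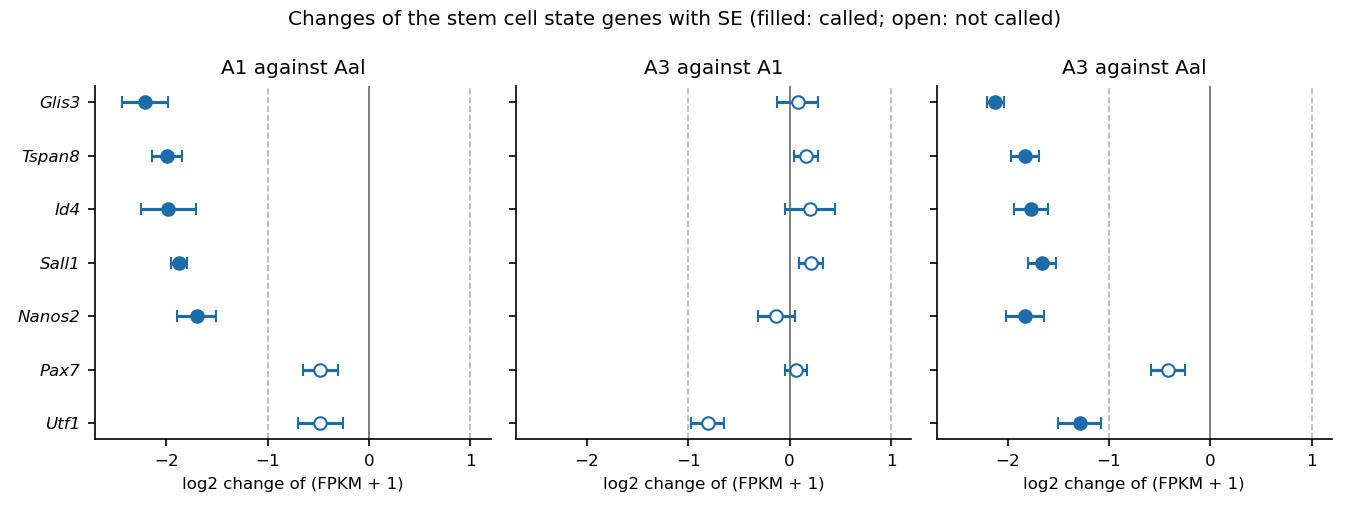
Log2 change of FPKM + 1 with its SE for each gene (rows) in the 3 comparisons (panels), filled where called and open where not, with dashed lines at a log2 change of 1 in either direction. In A1 against Aal 5 genes are filled, in A3 against A1 none, and in A3 against Aal 6.

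From A1 to A3, which asks whether the loss went on as differentiation advanced, none of the 7 genes was called by limma. Of all genes, 1.02% of the 4590 tested were called lower and 0.479% higher. The median log2 change was 0.08 for the 7 and 0.01 for all genes. At an unadjusted p under 0.05 there was 1 of the 7, Utf1, while 34.0% of all genes tested were under it, and voom on the recovered reads called 0 of the 7 as well. With the mean of the Sertoli markers as a covariate 0 were called too.

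Utf1 was at 8.36, 8.90 and 6.32 FPKM in A1 and at 4.69, 3.32 and 4.16 in A3. All A3 libraries were below all A1 libraries, the only one of the 7 for which this held, while 38.1% of all genes tested did not overlap. The A3 mean was 51.6% of the A1 mean. This was a log2 change of -0.81 (SE 0.16, 95% interval -1.17 to -0.45, limma adjusted p = 0.0118), short of both thresholds. Without A1 replicate 3 it was -0.94 with an adjusted p of 0.00581, still short of the fold threshold.

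The other 6 had overlapping groups. Glis3 was at 13.3, 13.3 and 13.7 FPKM in A3, the closest agreement among replicates of the whole list (coefficient of variation 1.78%), and its log2 change was 0.08 with a 95% interval of -0.38 to 0.55. Sall1 was at 15.1, 19.7 and 21.5 FPKM in A3, a log2 change of 0.21 (95% interval -0.08 to 0.50). Both intervals include 0, and that of Sall1 lies mostly above it.

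Id4 was at 9.57, 6.31 and 7.13 FPKM in A3, with a log2 change of 0.20 (95% interval -0.38 to 0.78). Nanos2 was at 1.43, 1.24 and 2.15, with a change of -0.13 (-0.56 to 0.29). For Tspan8 the A3 values were 1.91, 1.76 and 1.61, a change of 0.16 (-0.12 to 0.43), and for Pax7 1.21, 1.45 and 1.46, a change of 0.06 (-0.20 to 0.32). Nanos2, the sparsest, rests on 39, 40 and 78 reads in A3. The signs of the Id4, Nanos2 and Glis3 changes turned when single libraries were left out.

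In A3 the order was Sall1 (18.8 ± 3.301 FPKM, n = 3), Glis3 (13.4 ± 0.239), Id4 (7.67 ± 1.70), Utf1 (4.06 ± 0.691), Tspan8 (1.76 ± 0.147), Nanos2 (1.61 ± 0.477) and Pax7 (1.38 ± 0.144). The first 5 did not overlap with the next in the order down to Tspan8, while Tspan8, Nanos2 and Pax7 overlapped each with the next. Over both differentiating groups the mRNAs were still measured in each library, as was every gene of the table, with Nanos2 at no fewer than 38 reads.

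Over both steps, A3 against Aal, 6 of the 7 genes fell: Id4, Nanos2, Glis3, Sall1, Tspan8 and Utf1. Of all genes, 9.69% of the 4687 tested were called lower and 7.87% higher. The log2 changes were -2.12 for Glis3 (SE 0.08, limma adjusted p = 3.13e-06), -1.83 for Nanos2 (0.000107), -1.83 for Tspan8 (3.15e-05), -1.77 for Id4 (8.41e-05) and -1.66 for Sall1 (4.14e-05). Utf1 entered the calls here, with a log2 change of -1.29 (SE 0.21, limma adjusted p = 0.00104) and an A3 mean at 35.0% of Aal.

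Pax7 stayed outside, at -0.42 (95% interval -0.81 to -0.03, limma adjusted p = 0.0609) and 61.8% of its Aal mean. Aal and A3 did not overlap for any of the 7, nor for 73.1% of all genes tested. The comparison shares its libraries with the other 2 and is no further evidence for them. Without Aal replicate 1 Utf1 missed the fold threshold, at -0.95, leaving 5 genes called. The Sertoli marker sum was at 40.6 to 52.3 FPKM in Aal and at 218 to 409 in A3, so its part and that of the stage cannot be told apart here. With that list's mean as a covariate 0 of 7 genes, and 0 of the 4687 tested, were called by limma, and 4 of the 7 (Utf1, Glis3, Id4 and Tspan8) and 28.5% of all genes tested had an unadjusted p under 0.05.

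**Figure D3:**
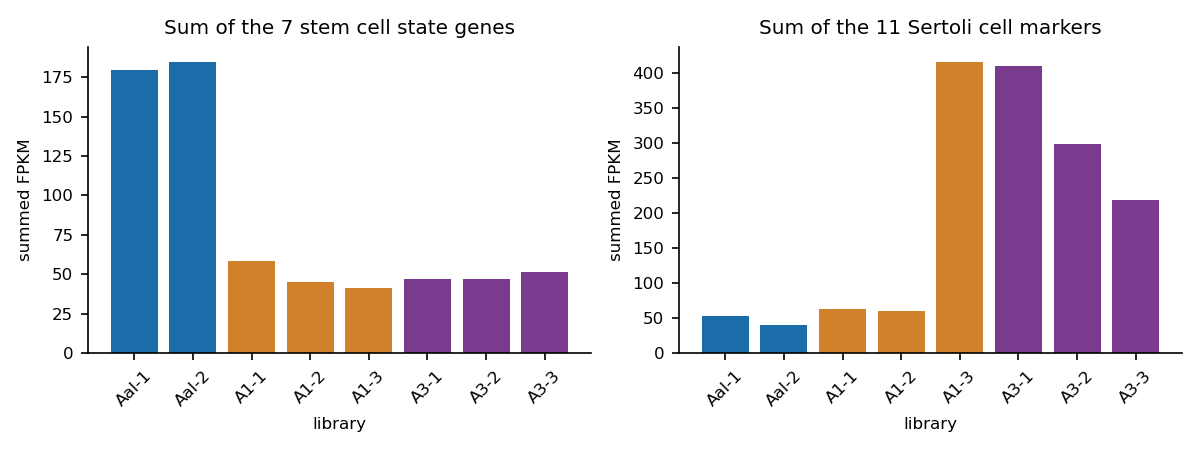
Summed FPKM per library of the 7 stem cell state genes (left) and of the 11 Sertoli cell markers (right), as bars from 0. The 7 genes are at 179.5 and 184.9 in Aal and at most 58.4 elsewhere. The Sertoli sums are 52.3 and 40.6 in Aal, 62.5 and 60.7 in A1 replicates 1 and 2 and at least 218 elsewhere.

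The steps themselves were set against each other by a contrast added after the values were seen, the change from A1 to A3 minus the change from Aal to A1, in 1 fit of all 8 libraries. A positive value means that the second change lay above the first. For a gene that fell in the first step, that is a smaller fall or a rise in the second. By the same call rule 5 of the 7 were called in that direction, against 3.24% of the 4789 genes tested, whether or not those genes fell. The values were 2.29 for Glis3 (limma adjusted p = 0.00183), 2.18 for Id4 (0.00696), 2.14 for Tspan8 (0.000573), 2.08 for Sall1 (0.000573) and 1.57 for Nanos2 (0.00924).

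Pax7 had 0.55 (95% interval -0.02 to 1.11) and Utf1 had -0.32 (95% interval -1.11 to 0.46), neither called. The difference in course between Utf1 and the other genes was not itself tested. With the mean of the Sertoli markers as a covariate the same 5 genes were called, at 1.56 to 2.28. Tspan8 and Sall1 were called in every fit tried. The count was 3 with no mean-variance trend, and also without Aal replicate 1, without A1 replicate 3 and without any single A3 replicate, when Id4 and Nanos2 missed the adjusted threshold. It was 2 without Aal replicate 2 or A1 replicate 2, when Glis3 missed it too. The A1 libraries enter this contrast on both sides, so an error in them counts in both steps.

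**Figure D4:**
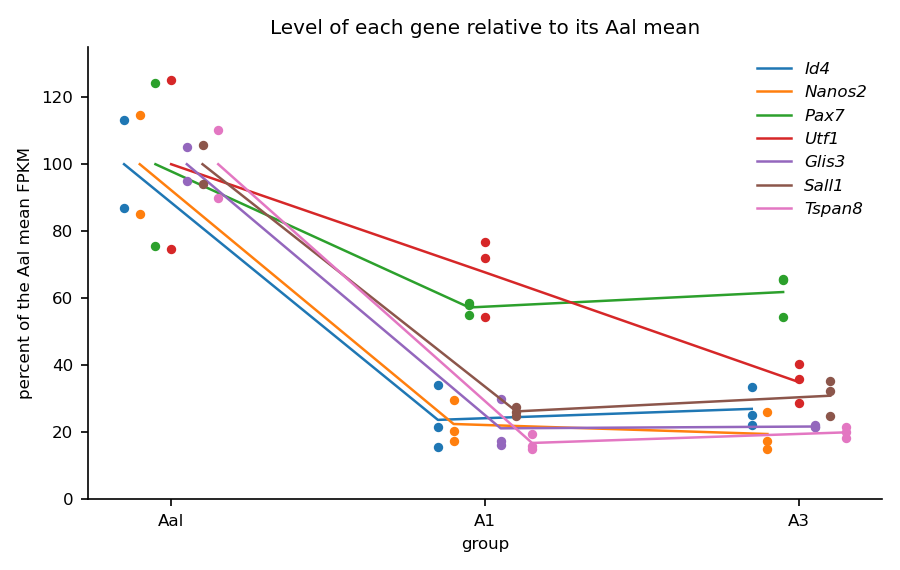
Level of each gene as a percent of its own Aal mean FPKM (vertical axis) in Aal, A1 and A3, with group means joined by lines and points for single libraries. In A1, 5 genes sit at means of 16.8 to 26.2%, Pax7 at 57.2% and Utf1 at 67.7%, and in A3 Utf1 is at 35.0%.

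Across the 8 libraries the 7 genes were correlated with each other to different degrees. The highest Pearson r of log2(FPKM + 1) was 0.974 (Nanos2 and Glis3) and the lowest 0.303 (Pax7 and Utf1), and Utf1 had no r above 0.689 with any of the others. The libraries form groups by stage and the correlations largely restate the group means, so they are given as a description.

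For each gene the 3 genes of the table with the most similar profile were taken by the same measure, out of 4789 searched. Glis3 was closest to Iqub (r = 0.997), Nanos3 (0.997) and Iqcg (0.996). Tspan8 was closest to a gene whose symbol had become the date 10-Mar in the table (0.997), to the oestrogen receptor gene Esr1 (0.993) and to Lasp1 (0.993). The means of Esr1 were 3.07 FPKM (Aal), 0.389 (A1) and 0.476 (A3).

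Sall1 was closest to Rpl6, Rin2 and Tmem198b (0.995, 0.995 and 0.994). Nanos2 was closest to the glucose transporter gene Slc2a3 (0.991), the translation elongation factor gene Eef2 (0.990) and Entpd6 (0.989), and Id4 to Pex6, Auts2 and the cannabinoid receptor gene Cnr1 (0.987, 0.983 and 0.982). Eef2 had 1352 FPKM in Aal and 771 in A1, so a similar profile does not mean a similar size of change. Pax7 was closest to Ppp2r1a (0.960) and Utf1 to Mrpl45 (0.970), a mitochondrial ribosomal protein gene with means of 29.3, 26.4 and 21.8 FPKM.

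Among the relatives of the 7 genes only some were called. Nanos3, a paralog of Nanos2 that marks progenitors, had 91.4 and 111.7 FPKM in the Aal libraries, then 21.7, 12.6 and 12.2 in those of A1 and 15.3, 14.8 and 14.6 in those of A3. It fell from Aal to A1 by 2.67 on the log2 scale (SE 0.23, limma adjusted p = 0.000286) and had a change of -0.01 from A1 to A3. It was the only one called of the 5 tested on the list of NANOS and PUM regulators.

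Sall3, a paralog of Sall1, fell by 1.24 on the log2 scale from Aal to A1 (limma adjusted p = 0.000459) from a mean of 2.46 FPKM, and it was under the level filter in A3 against A1. Id2, a paralog of Id4, took the opposite course. Its Aal libraries had 1.40 and 0.845 FPKM, its A1 libraries 2.61, 3.60 and 7.79 and its A3 libraries 11.5, 18.0 and 17.1. Id2 rose from Aal to A3, with a log2 change of 2.95 (SE 0.21, limma adjusted p = 2.38e-05).

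The A1 library with the highest Id2 was replicate 3, the one high in Sertoli markers, and all A3 libraries were high in both, so the part of those markers in the Id2 values was not tested. Id3, another paralog, had means of 1.41, 3.97 and 1.32 FPKM, with limma adjusted p of 0.0113 and 0.0103 for the steps, neither called. Of the E proteins that ID proteins bind, Tcf3, Tcf4 and Tcf12 were not called in any comparison. Tcf4 was short of the fold threshold only, at -0.94 in A1 (limma adjusted p = 0.00221) and -0.96 in A3 (0.00148) against Aal. Tcf3 had 0.08 and 0.17 there, and Tcf12 had 0.28 and 0.31. Glis1, a paralog of Glis3, had means of 23.4, 24.4 and 21.3 FPKM and no call, while Zic2 of the same zinc finger list fell from Aal to A3 (log2 change -1.31, limma adjusted p = 0.000146). Of 4 other tetraspanins tested none was called. Tspan5 among them had a log2 change of -0.65 from Aal to A1 (limma adjusted p = 0.00886), short of the fold threshold. None of 4 genes tested on the list of UTF1-linked pluripotency and PRC2 genes was called in any of the 3 comparisons. From Aal to A1, Dppa2 (log2 change -0.87, limma adjusted p = 0.00164) and Ezh2 (0.80, 0.000482) were short of the fold threshold only. The same held for Ezh2 from A1 to A3 (-0.74, 0.00407). Jarid2 and Rbbp7 had 0.31 and 0.18 from Aal to A1.

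**Figure D5:**
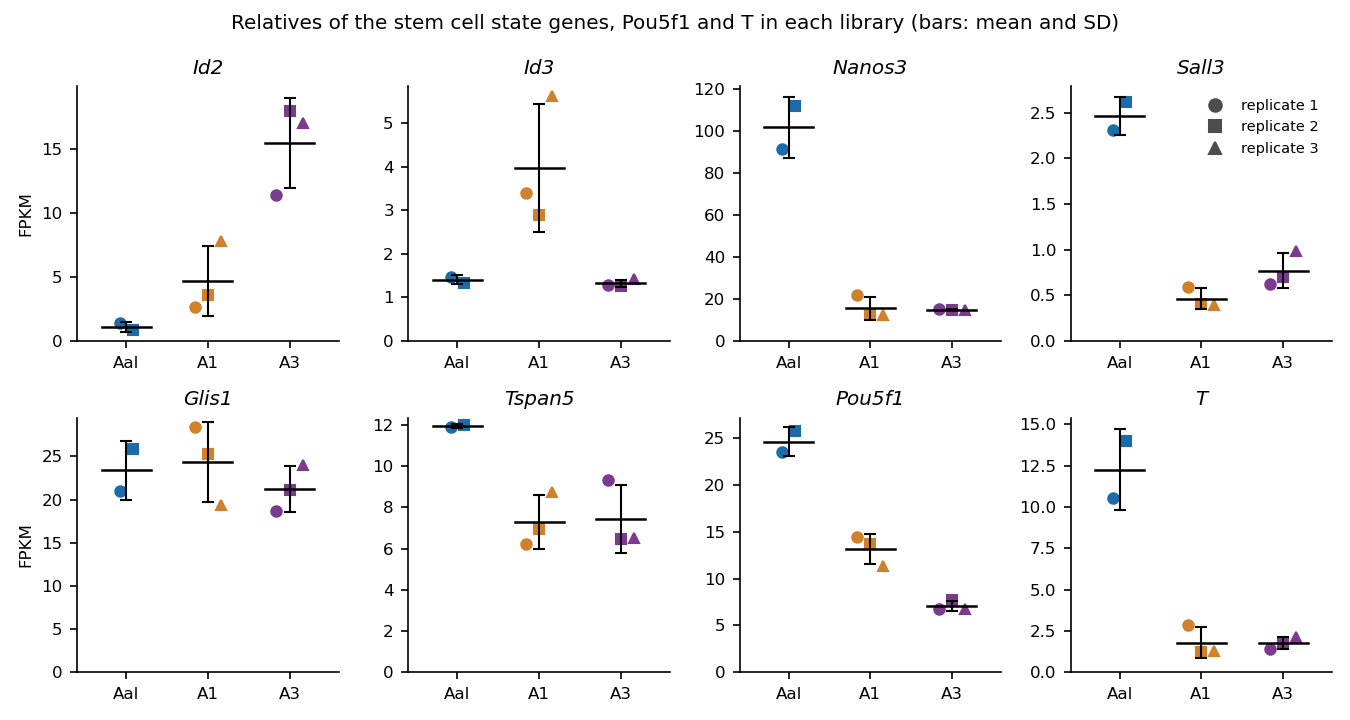
FPKM of Id2, Id3, Nanos3, Sall3, Glis1, Tspan5, Pou5f1 and T in each library, on linear axes from 0 with mean and SD as bars. Nanos3, Sall3 and T are high in Aal alone, Id2 is highest in A3, and Pou5f1 is lower in each later group.

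Of 25 other genes associated with the stem cell state, 8 were in the table and were tested. From Aal to A1, 5 of the 8 fell: Ret, the GDNF receptor, Etv5, Lhx1 and T, transcription factors known as GDNF-responsive or as stem cell markers, and Egr3, an early growth response factor. Their log2 changes were -1.94, -1.75, -1.84, -2.28 and -1.36. Ret was at 78.7 and 86.5 FPKM in Aal and at 30.1, 18.0 and 16.5 in A1, above the level of any of the 7 genes in Aal.

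From A1 to A3 none of these 8 was called by limma. Over both steps 6 fell, Pou5f1 being added with a log2 change of -1.67 (limma adjusted p = 1.46e-05). Pou5f1, the pluripotency factor gene, had changes of -0.86 from Aal to A1 and -0.81 from A1 to A3. Each was short of the fold threshold only (limma adjusted p = 0.000979 and 0.00329). Utf1, with -0.48 and -0.81, was short of both thresholds at each step. The median log2 changes of the 8 were -1.56, -0.06 and -1.62 in the 3 comparisons, beside -1.87, 0.08 and -1.77 for the 7 genes.

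On the list of 12 progenitor genes only 4 were in the table, and these were tested. Of them, Nanos3 and Upp1 fell from Aal to A1, and Neurog3 too from Aal to A3 (-1.70, limma adjusted p = 3.9e-05). Of 13 genes on the differentiating list, 9 were in the table and 8 were tested. Kit and Stra8 were not in the table. Of the 8 tested, 5 rose at the first step, at which the 7 genes fell or were not called. They were the transcription factor gene Sohlh2 (log2 change 1.14), the DNA methyltransferase gene Dnmt3b (1.25) and Uhrf1 (1.19). The protease gene Prss50 (1.82) and the RA-degrading enzyme gene Cyp26a1 (1.94) were the others. Cyp26a1 then fell from A1 to A3, from a mean of 4.09 FPKM to 1.07 (limma adjusted p = 0.000977), the single call of that list in that comparison. At the first step Dnmt3a (-0.13), Ccnd2 (-0.22) and Kitl (0.69) were not called. From Aal to A3, 4 of the 8 rose (Sohlh2, Dnmt3b, Uhrf1 and Kitl), and Ccnd2 fell (-1.12, limma adjusted p = 1.92e-05). The other 3, Prss50 and Cyp26a1 among them, were not called there. Kitl was at 0.645 and 0.613 FPKM in Aal, at 4.18 in A1 replicate 3 and at 3.08, 2.34 and 1.68 in A3. A1 replicates 1 and 2 lay above Aal and below every A3 library. The libraries highest in Kitl were thus those high in Sertoli markers, and the part of those markers in the Kitl values was not tested.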

How the data were processed

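Reads were made and processed by the authors. Libraries came from a stranded mRNA kit sequenced single-end, and cutadapt 1.9, STAR 2.5.2b and featureCounts were used with mm9 according to the submitters' processing notes. The deposited values are FPKM per gene and library. How counts became FPKM, with which annotation and strand setting, is not given in the sources used here. Read counts were recovered from the steps of the deposited FPKM (100% of genes whole within 0.001 read). No column was left unassigned.

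Each pair of groups was fitted separately with limma 3.58.1 (R 4.3.3; lmFit, eBayes with trend, two-sided) on log2(FPKM + 1), for genes that reached an FPKM of 1 in 2 or more libraries of the pair. Calls needed an absolute log2 change above 1 and a p, adjusted over all genes tested by Benjamini-Hochberg, of at most 0.01. Libraries are separate cell preparations per the study's methods, so p-values rest on the spread between 2 or 3 preparations. The variance of each gene was drawn toward a trend over all genes tested. The genes named are the 7, their relatives, listed markers, the 3 closest profiles of each and Uchl1. Members and lists were chosen with earlier results of these data known. The fits were tested on simulated data. Alternatives were another pseudocount, filter, scaling, threshold, trend, set of libraries, a replicate block, voom on the recovered reads, a Sertoli covariate and each library left out.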

Additional observations from a re-analysis of the deposited data

How the results depend on the processing

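Of 280 log2 changes recomputed under the alternatives, 263 kept their direction and their side of the threshold, 11 lost the call and 6 changed sign. Leaving out single libraries gave 2 to 5 genes called in A1 against Aal, 0 in A3 against A1 and 5 to 6 in A3 against Aal. It also gave ranges that cross 0 in A3 against A1 for Id4 (-0.025 to 0.465), Nanos2 (-0.274 to 0.011) and Glis3 (-0.074 to 0.342), and for the contrast of the steps of Utf1 (-0.665 to 0.015). With the mean of the Sertoli markers as a covariate, the 5 calls of A1 against Aal and the 5 of the contrast of the steps held, but 0 of the 7 genes were called in A3 against Aal, Pax7 there turned to 0.60, and Nanos2 in A3 against A1 turned to 0.04. That covariate has no overlap between Aal and A3, or between Aal and A1, where it rests largely on A1 replicate 3. For the contrast of the steps, 82 of 105 values kept direction and call, 22 lost the call and 1 changed sign. Its count of 5 was 4 with pseudocount 0.1, without the filter or with voom, 3 without the trend, and 2 to 5 with single libraries left out. Voom called 731 genes in A1 against Aal, 199 in A3 against A1 and 1215 in A3 against Aal, where limma on FPKM called 424, 69 and 823. Same-numbered libraries share only a number: their deviations from the group means correlated at -0.107, 0.022 and -0.323 between A1 and A3, at -0.153 and 0.012 between Aal and A1 and at 0.045 and -0.025 between Aal and A3. With the replicate block 5, 0 and 6 of the 7 genes were called in the 3 comparisons and 4 in the contrast of the steps. The smallest counts behind a value, 38 reads for Nanos2 and 43 for Tspan8 in A1, limit how small a change could be seen there.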
